A study of Mus musculus with 11 samples.

Results

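The genes described here encode the nuclear subunits of the mitochondrial respiratory chain and of ATP synthase, measured in mouse Leydig tumor cells after knockdown of *Mamld1*. They were chosen by name alone: symbols starting with Ndufa, Ndufb, Ndufc, Ndufs, or Ndufv (complex I), Uqcr (complex III), Cox4 to Cox8 (complex IV), or Atp5 (complex V), together with *Sdha*, *Sdhb*, *Sdhc*, *Sdhd* (complex II), and *Cyc1* (complex III). The Ndufaf assembly factors were left out. The reference names 89 such protein-coding genes, and 84 of them had a probe on the array, of 17016 named genes with a probe. These 84 genes had 104 of the 41174 probes. In all, 101 probes of 81 genes were well above background on all 11 arrays, of 22632 probes with that property. By complex, the 81 genes comprised 36 of complex I, 4 of complex II, 9 of complex III, 15 of complex IV, and 17 of complex V. *Cox4i2*, *Cox8b*, and *Cox8c*, isoforms of complex IV subunits, had 1 probe each and did not pass. *Cox8b* was well above background on 0 arrays, and *Cox4i2* and *Cox8c* on 1 array each. The remaining 5 genes, namely *Ndufa11*, *Ndufb1*, *Ndufa4l2*, *Ndufb4b*, and *Ndufb4c*, had no probe under these names. No probe was named for any of the 13 subunits encoded by mitochondrial DNA.

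Mouse Leydig tumor cells (MLTCs) are an established line derived from the testosterone-producing cells of the testis. The cells were transfected for 48 h with 20 nM of a non-targeting RNA (4611G, control, 4 arrays), of siRNA1 (4 arrays), or of siRNA2 (3 arrays), with Lipofectamine RNAiMAX in all 3 groups. The siRNAs are duplexes of different sequence against *Mamld1*, a gene linked to testosterone production. Per the methods, hCG was added to the cells before harvest, whereas the sample labels do not mention hCG, and neither source says whether arrays of the same group came from separate cultures, so that the p-values measure the spread between arrays, which may be technical.

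The respiratory chain passes electrons from NADH (complex I) and succinate (complex II) through coenzyme Q, complex III, and cytochrome c to oxygen at complex IV, and the proton gradient that this builds drives ATP synthase (complex V). Most subunits are encoded in the nucleus, and a few core subunits of complexes I, III, IV, and V are encoded in mitochondrial DNA. In Leydig cells, the first step of steroid synthesis, the side chain cleavage of cholesterol, takes place in mitochondria.

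Promoter sequences are shown for 3 of the 4 genes whose calls against control remained when any 1 array was left out (*Ndufb5*, *Atp5j*, and *Cox7a1*, the other being *Ndufa9*), for another gene with lower signals (*Atp5pb*), and for a gene that was not called (*Sdhd*). They are from RefSeq, GRCm38.p6, and run from 150 bases before to 30 bases after an annotated transcription start. *Atp5j* has 2 annotated starts in the table, and the one whose window holds a motif is shown. Capitals mark a match to the letters AAGATGGC, a core of the YY1 motif (in *Atp5pb* on the opposite strand), or to the letters GCGCANGCGC, the core of the NRF1 motif (in *Sdhd*).

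*Atp5j*, chr16:84834947-84835126, minus strand: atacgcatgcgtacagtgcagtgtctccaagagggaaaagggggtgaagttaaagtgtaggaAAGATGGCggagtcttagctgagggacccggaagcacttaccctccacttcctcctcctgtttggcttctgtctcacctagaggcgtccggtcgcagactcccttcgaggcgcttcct
*Atp5pb*, chr3:105959234-105959413, minus strand: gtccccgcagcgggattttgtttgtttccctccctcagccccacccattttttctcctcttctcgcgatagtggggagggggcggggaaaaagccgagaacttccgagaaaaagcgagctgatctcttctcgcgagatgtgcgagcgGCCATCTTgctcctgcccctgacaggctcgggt
*Ndufb5*, chr3:32736913-32737092, plus strand: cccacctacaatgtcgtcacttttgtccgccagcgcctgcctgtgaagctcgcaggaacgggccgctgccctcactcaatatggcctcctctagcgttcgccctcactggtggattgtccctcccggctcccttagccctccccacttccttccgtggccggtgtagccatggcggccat
*Cox7a1*, chr7:30184021-30184200, plus strand: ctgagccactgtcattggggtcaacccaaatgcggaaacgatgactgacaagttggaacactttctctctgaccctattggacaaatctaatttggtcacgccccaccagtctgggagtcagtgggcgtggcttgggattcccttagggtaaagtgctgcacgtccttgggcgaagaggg
*Sdhd*, chr9:50603820-50603999, minus strand: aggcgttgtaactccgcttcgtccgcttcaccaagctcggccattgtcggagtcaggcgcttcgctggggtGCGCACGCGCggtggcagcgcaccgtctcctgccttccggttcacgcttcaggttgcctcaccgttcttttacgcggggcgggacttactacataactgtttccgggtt

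These 2 motifs, and CCGGAAGT of the ETS family, were searched on both strands in windows from 250 bases before to 50 bases after a start. YY1, NRF1, and the ETS protein GABP are transcription factors known for binding promoters of respiratory chain genes. The motifs were picked after the array values were known. The table held 76 windows of 71 subunit genes. The letters GCGCANGCGC were in 23.7% of these windows, as against 4.6% of all 32851 windows. The letters AAGATGGC were in 13.2% as against 2.75%, and CCGGAAGT in 6.58% as against 3.89%. AAGATGGC was in a window of 10 of the 71 subunit genes. Among them were *Atp5j*, *Atp5pb*, and *Ndufa9*, 3 of the 5 genes with a window among those lower with siRNA1. The rest of the 10 were not called with siRNA1. In *Ndufa9*, AAGATGGC began 30 bases after the start. None of these 5 genes, nor *Cox7a1* or *Ndufa7*, had GCGCANGCGC. A match of letters shows neither that a factor binds there nor that it acts.

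The signals of an array were divided by its 75th percentile and are given below as percent of the control mean (the geometric mean of 4 arrays), with means ± SD over the 4 control, 4 siRNA1, and 3 siRNA2 arrays. The 75th percentile was 470 to 582 for control, 601 to 774 for siRNA1, and 488 to 579 for siRNA2 arrays. *Mamld1* was lower with both siRNAs, at 54.0% ± 15.4 and 59.8% ± 12.6 of control (limma adjusted p = 0.0046 and 0.026), a direction that turned with normexp background correction. The call for siRNA2 was lost without control array 3, control array 4, or siRNA2 array 1. The *Mamld1* probe was dim, with mean unscaled signals of 28.8 for control, 19.1 for siRNA1, and 17.9 for siRNA2. By real-time PCR, the paper found a marked reduction of *Mamld1* mRNA with both siRNAs. All 7 Leydig cell markers were well above background on all arrays. Of 6 Sertoli cell markers, *Amh* and *Dhh* were, and *Sox9* and *Wt1* were on none. Of 3 macrophage or leukocyte markers, none was, whereas 2 of 4 germ cell and 1 of 3 peritubular myoid cell markers were. The summed unscaled signal of Leydig cell markers was 169970 to 265245 for control, 203217 to 261145 for siRNA1, and 224557 to 234925 for siRNA2. That of the germ cell markers was 6010 to 7091 for control, 5771 to 10111 for siRNA1, and 6240 to 9208 for siRNA2. That of the peritubular myoid cell markers was 6559 to 8153, 6963 to 10364, and 6755 to 10058. The summed unscaled signal of Sertoli cell markers was 1347 to 1587 for control, 1518 to 1898 for siRNA1, and 2448 to 2601 for siRNA2. That of 3 endothelial cell markers, of which only *Cdh5* was above background, was 317 to 394, 763 to 1358, and 553 to 853. Their part in the results below was not tested. The 11 arrays lay on 3 slides with all 3 groups on each. Over all probes, deviations from the group means had a median correlation of 0.37 for arrays on the same slide (13 pairs) and of -0.16 for arrays on different slides (27 pairs).

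The first question was whether the respiratory chain genes changed when *Mamld1* was knocked down. Few of them did, and no single gene was called with both siRNAs (8.72% of all probes were called in the same direction with both). With siRNA1, 6 of the 81 genes were called, all lower, whereas 28.3% of all probes were called (16.1% lower and 12.2% higher). The 6 were *Ndufb5* and *Ndufa9* of complex I, *Sdhb* of complex II, *Uqcrb* of complex III, and *Atp5j* and *Atp5pb* of complex V. With siRNA2, 3 genes were called, as against 19.4% of all probes. They were *Cox7a1*, which was higher (8.15% of all probes were called higher), and *Ndufa7* and *Cox6a2*, which were lower (11.2%). The other 72 genes were called with neither siRNA. The directions depended on the scaling. With quantile normalization, 4 genes were called lower and 2 higher with siRNA1, as against 28.3% of all probes called. With siRNA2, 2 were then lower and 4 higher, as against 19.8%. None of the 81 genes changed by 2-fold or more with a call, as against 2.44% of all probes with siRNA1 and 1.91% with siRNA2. With siRNA1, 16 of the 81 genes had an unadjusted p under 0.05 in limma, as against 39.4% of probes, and with siRNA2, 6 did, as against 31.3%.

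The differences themselves were small. The 95% interval of the log2 difference lay within 1, that is, within 2-fold, for all 81 genes with siRNA1 and for 80 with siRNA2, with *Cox7a1* as the exception (0.38 to 1.05). It lay within 0.5 for 63 genes with siRNA1 and for 67 with siRNA2. The median standard error of the log2 difference was 0.11 for the 81 genes and 0.12 for all probes with siRNA1, and 0.12 and 0.13 with siRNA2. The interquartile range of the log2 differences was -0.20 to -0.0032 for the 81 genes and -0.25 to 0.17 for all probes with siRNA1. With siRNA2, it was -0.06 to 0.12 for the 81 genes and -0.19 to 0.17 for all probes.

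**Figure D1:**
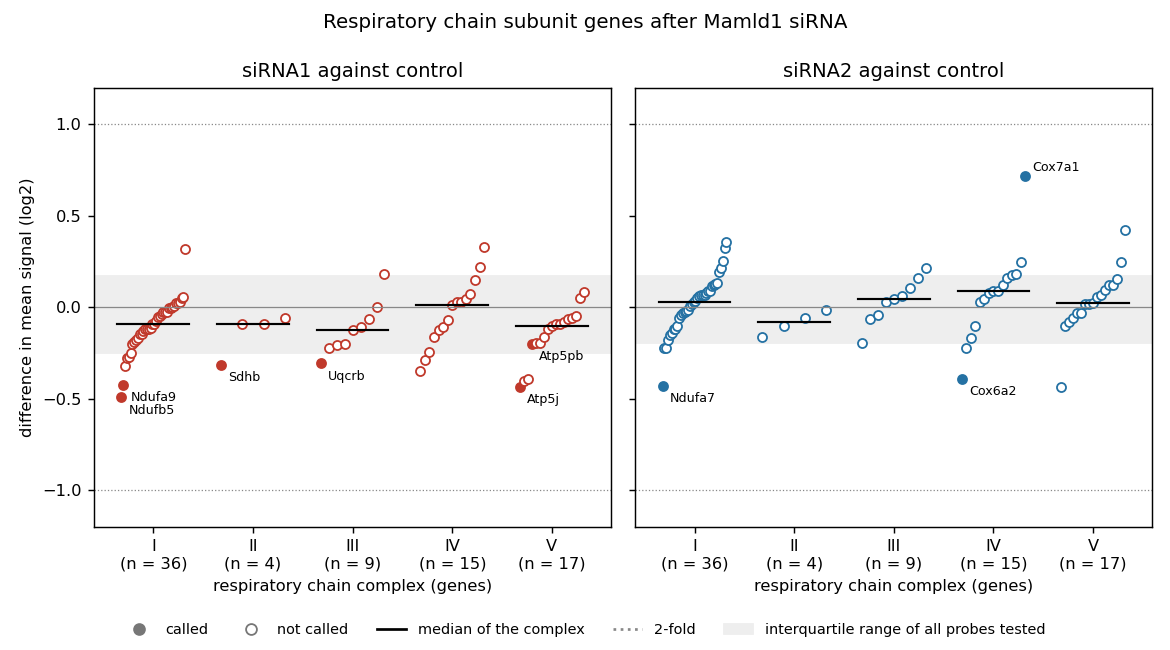
Difference in mean log2 signal from control for each of the 81 subunit genes (points), by complex, with siRNA1 (left) and siRNA2 (right). Filled points are called (limma adjusted p of 0.05 or less), black lines are medians, the gray band is the interquartile range of all 22632 probes, and dotted lines mark 2-fold. All genes lie inside the dotted lines, and the highest is *Cox7a1* with siRNA2 at 0.71.

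As a group, the 81 genes had a median log2 difference of -0.09 with siRNA1 (all probes -0.05) and of 0.03 with siRNA2 (all probes -0.01), but the first became 0.011 with quantile normalization, and the second became -0.0096 without control array 1 and -0.04 without siRNA2 array 3. With siRNA1, 62 of the 81 genes were below control (56.7% of all probes were), and with quantile normalization, 36 were. With siRNA2, 32 were below control (51.8% of all probes). The median over the 81 genes was 93.0%, 101%, 103%, and 104% of control on control arrays 1 to 4. It was 86.4%, 100.4%, 85.1%, and 101% on siRNA1 arrays 1 to 4, and 91.3%, 103%, and 113% on siRNA2 arrays 1 to 3. Thus siRNA1 arrays 1 and 3 were below all control arrays, and siRNA1 arrays 2 and 4 lay among them, and the siRNA2 arrays lay below, among, and above the control arrays. The all-probe medians were between 94.7% and 101% on every array.

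**Figure D2:**
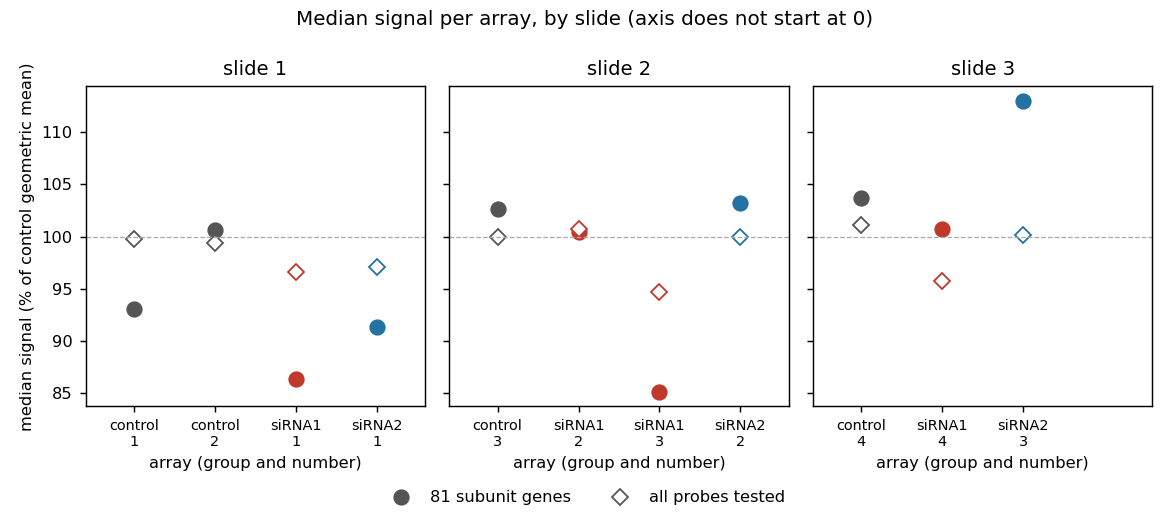
Median signal (percent of the control geometric mean) of the 81 subunit genes (filled circles) and of all 22632 probes (open diamonds) on each array, by slide. siRNA1 arrays 1 and 3 are at 86.4% and 85.1%, siRNA1 arrays 2 and 4 are at 100.4% and 101%, and siRNA2 array 3 is the highest at 113%.

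The differences also varied between slides. Within slides 1, 2, and 3, the median log2 difference of the 81 genes was -0.17, -0.15, and -0.02 for siRNA1, and -0.08, 0.02, and 0.12 for siRNA2. With the slide as a block in limma, 13 of the 81 genes were called with siRNA1, all lower, as against 37.9% of all probes, and 3 with siRNA2, as against 27.3%. *Ndufa7* and *Cox6a2* were then called lower with both siRNAs.

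In complex I, which takes electrons from NADH, 2 of 36 genes fell with siRNA1 and 1 fell with siRNA2. *Ndufb5* encodes a subunit of the membrane arm. Its signal was 114%, 104%, 87.3%, and 96.6% on the control arrays, 78.2%, 69.6%, 68.5%, and 68.4% with siRNA1, and 96.7%, 90.1%, and 83.2% with siRNA2. All siRNA1 arrays were below all control and all siRNA2 arrays, and siRNA2 arrays overlapped with control. The log2 difference was -0.49 ± 0.10 (SE) with siRNA1 (limma adjusted p = 0.0029) and -0.15 ± 0.10 with siRNA2 (adjusted p = 0.37). *Ndufa9* encodes a subunit near the site where coenzyme Q is reduced. It was 105%, 101%, 86.1%, and 109% on the control arrays, 77.8%, 81.4%, 68.1%, and 71.5% with siRNA1, and 92.9%, 88.3%, and 91.3% with siRNA2. The siRNA1 arrays were again below all others. Its log2 difference was -0.42 ± 0.09 with siRNA1 (limma adjusted p = 0.0055) and -0.14 ± 0.10 with siRNA2 (adjusted p = 0.40). The calls of both genes remained when any 1 array was left out. Within slides, the siRNA1 differences were -0.48, -0.34, and -0.50 for *Ndufb5* and -0.41, -0.21, and -0.61 for *Ndufa9*.

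*Ndufa7*, which encodes a subunit of the matrix arm, was lower with siRNA2. Its signal was 92.1%, 89.0%, 110%, and 111% on the control arrays, 75.5%, 90.7%, 72.8%, and 93.5% with siRNA1, and 64.4%, 74.7%, and 84.6% with siRNA2. The siRNA2 arrays were below all control arrays, and the siRNA1 arrays overlapped with them. The log2 difference was -0.43 ± 0.13 with siRNA2 (limma adjusted p = 0.042) and -0.28 ± 0.12 with siRNA1 (adjusted p = 0.12). The siRNA2 call was lost without control arrays 1, 3, or 4 or siRNA2 arrays 1 or 2, and with median scaling. A second, dimmer probe was not called (-0.36, limma adjusted p = 0.15). The brightest complex I genes, *Ndufa13* and *Ndufs5*, were not called with either siRNA. *Ndufa13* was at 90.9% ± 10.6 with siRNA1 and 111% ± 16.4 with siRNA2, and *Ndufs5* at 88.9% ± 10.7 and 102% ± 15.7. *Ndufa4*, which is now known as a subunit of complex IV and is grouped here by its name, was at 99.9% ± 9.17 and 106% ± 11.1.

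*Ndufv3*, a subunit of the NADH-oxidizing part of complex I, depended on the probe. By its brightest probe it was 87.0%, 115%, 98.9%, and 101% on the control arrays, 80.2%, 107%, 87.1%, and 97.2% with siRNA1, and 112%, 136%, and 138% with siRNA2. Only the siRNA1 and siRNA2 arrays were apart from each other here. This probe was not called with siRNA1 (log2 difference -0.12, limma adjusted p = 0.51) or siRNA2 (0.36, adjusted p = 0.076). A second probe was 105%, 92.5%, 98.1%, and 105% on the control arrays and 63.5%, 81.04%, 62.4%, and 70.2% with siRNA1, and another was 95.6%, 105%, 99.4%, and 100.03% and 66.3%, 58.6%, 71.0%, and 71.1%. On both, all siRNA1 arrays were below all control arrays, and both were called lower (-0.54 and -0.59, limma adjusted p = 0.0037 and 0.00037). The signs with siRNA2 also differed between the probes (0.36, -0.26, and -0.22, none called). Among the 16 genes with more than 1 passing probe, all probes had the same sign in 11 with siRNA1 and in 11 with siRNA2.

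**Figure D3:**
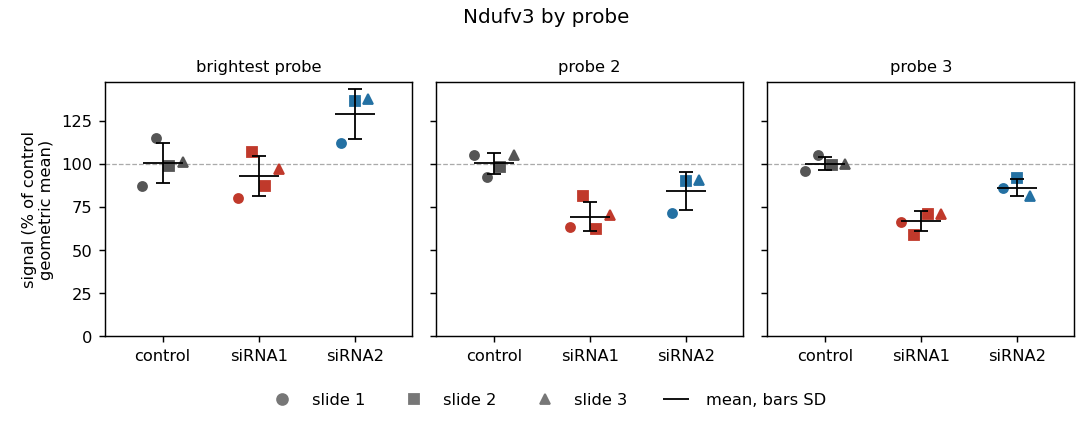
Signal of the 3 *Ndufv3* probes on each array (percent of the control geometric mean of the same probe), with the brightest probe on the left. Markers show slides, and lines and bars show the mean and SD of each group. With siRNA1, the mean is 92.8% for the brightest probe and 69.3% and 66.7% for the others.

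Complex II, or succinate dehydrogenase, has 4 nuclear subunits and none from mitochondrial DNA. *Sdhb*, the iron-sulfur subunit, fell with siRNA1. It was 92.4%, 105%, 100.1%, and 103% on the control arrays, 75.3%, 88.3%, 72.2%, and 86.5% with siRNA1, and 90.0%, 94.0%, and 104% with siRNA2. All siRNA1 arrays were below all other arrays. With siRNA1, the log2 difference was -0.32 ± 0.09 (limma adjusted p = 0.023), and -0.06 ± 0.10 with siRNA2 (adjusted p = 0.75). The call was lost without control arrays 2, 3, or 4 or siRNA1 arrays 1 or 3, and with median scaling. *Sdha*, the flavoprotein, was at 94.3% ± 8.87 with siRNA1 and 99.2% ± 3.92 with siRNA2. *Sdhc* and *Sdhd*, the membrane anchors, were at 96.2% ± 4.65 and 93.9% ± 4.35 with siRNA1, and at 89.3% ± 5.79 and 93.3% ± 2.52 with siRNA2. None of these 3 genes was called with either siRNA. On the *Sdhc* probe the siRNA2 arrays, at 83.9%, 95.4%, and 88.5%, were nevertheless all below the control arrays, at 98.9% to 101%. Of the 81 genes, 11 with siRNA1 and 11 with siRNA2 had groups that did not overlap, as against 29.7% and 28.6% of all probes.

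In complex III, 1 of 9 genes was called. *Uqcrb*, a small subunit at the ubiquinone-binding side, was 91.6%, 98.6%, 106%, and 105% on the control arrays, 73.1%, 82.6%, 75.6%, and 93.5% with siRNA1, and 94.9%, 98.9%, and 112% with siRNA2. siRNA1 array 4 was above control array 1, and the other siRNA1 arrays were below all control arrays. For *Uqcrb*, the log2 difference was -0.31 ± 0.10 with siRNA1 (limma adjusted p = 0.037) and 0.03 ± 0.11 with siRNA2 (adjusted p = 0.92). The siRNA1 call was lost in 7 of 11 fits without 1 array, namely without control arrays 2, 3, or 4, siRNA1 arrays 1, 2, or 3, or siRNA2 array 2. It was also lost with median scaling and with quantile normalization. *Cyc1*, cytochrome c1, was at 86.2% ± 10.6 with siRNA1 and 104% ± 18.8 with siRNA2, and was not called. The brightest genes, *Uqcrh*, the hinge protein, and *Uqcr10*, were at 87.4% ± 9.47 and 93.4% ± 12.9 with siRNA1, and at 105% ± 9.0 and 97.3% ± 11.1 with siRNA2, and were not called.

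*Uqcrfs1*, the Rieske iron-sulfur protein, was higher with siRNA1 than with siRNA2. It was 103%, 109%, 97.9%, and 90.9% on the control arrays, 100.4%, 110%, 114%, and 131% with siRNA1, and 85.7%, 90.2%, and 86.3% with siRNA2. The siRNA2 arrays were below all other arrays, and siRNA1 arrays overlapped with control. Neither siRNA gave a call against control (log2 difference 0.18 with siRNA1, limma adjusted p = 0.19, and -0.19 with siRNA2, adjusted p = 0.23).

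Complex IV, cytochrome c oxidase, had the largest single difference of the 81 genes. *Cox7a1*, the isoform of subunit VIIa found mainly in heart and skeletal muscle, rose with siRNA2. It was 95.7%, 99.8%, 105%, and 100.04% on the control arrays, 93.8%, 129%, 96.7%, and 129% with siRNA1, and 131%, 172%, and 195% with siRNA2. All siRNA2 arrays were above all other arrays, and siRNA1 arrays overlapped with control. The log2 difference was 0.71 ± 0.15 with siRNA2 (limma adjusted p = 0.0069) and 0.15 ± 0.14 with siRNA1 (adjusted p = 0.48). Within slides 1, 2, and 3, the siRNA2 difference was 0.42, 0.72, and 0.97, and the call remained when any 1 array was left out. The ubiquitous isoform *Cox7a2* was at 114% ± 16.2 with siRNA2 and 103% ± 14 with siRNA1, and *Cox7a2l*, a related protein of respiratory supercomplexes, at 93.3% ± 4.24 and 102% ± 8.10, and neither was called.

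*Cox6a2*, the muscle isoform of subunit VIa, fell with siRNA2. It was 98.9%, 96.8%, 94.5%, and 111% on the control arrays, 76.2%, 87.8%, 72.0%, and 92.9% with siRNA1, and 74.0%, 71.1%, and 84.2% with siRNA2. All arrays of both siRNAs were below all control arrays. Its log2 difference was -0.39 ± 0.11 with siRNA2 (limma adjusted p = 0.027) and -0.29 ± 0.10 with siRNA1 (adjusted p = 0.054). The siRNA2 call was lost without control arrays 1 or 4 or siRNA2 arrays 1 or 2, and with median scaling. The ubiquitous isoform *Cox6a1* was at 90.0% ± 12.2 with siRNA1 and 106% ± 14.7 with siRNA2. Thus the muscle isoforms of VIIa and VIa went in opposite directions with siRNA2, and their ubiquitous partners were not called. The probes of the muscle isoforms were much dimmer. Mean unscaled control signals were 443 for *Cox6a2* and 213977 for *Cox6a1*, and 3094 for *Cox7a1* and 38166 for *Cox7a2*.

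No other complex IV gene was called. *Cox4i1*, the common form of subunit IV, was 97.5%, 94.0%, 97.8%, and 112% on the control arrays, 87.0%, 95.7%, 84.6%, and 100.3% with siRNA1, and 102%, 97.9%, and 120% with siRNA2, so that all groups overlapped. *Cox8a* was at 95.9% ± 13.5 with siRNA1 and 104% ± 17.0 with siRNA2. *Cox6b1* varied widely between arrays, at 107% ± 22.4 with siRNA1 and 125% ± 46.1 with siRNA2, and *Cox6b2*, the testis isoform, was at 78.9% ± 10.0 and 90.1% ± 16.6. The median log2 difference of complex IV with siRNA1 was 0.0095, as against -0.12 to -0.09 for the other complexes, but it became -0.02 with the slide as a block and -0.29 with normexp background correction, and with quantile normalization complexes I and V were above 0 as well (0.01 each). With siRNA2, complex II had a median of -0.08 and the others had medians of 0.02 to 0.09, and with the slide as a block those of complexes I and V were just below 0.

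In complex V, 2 of 17 genes fell with siRNA1. *Atp5j*, also known as coupling factor 6, is part of the peripheral stalk. It was 88.7%, 102%, 109%, and 101% on the control arrays, 69.3%, 81.5%, 63.4%, and 83.4% with siRNA1, and 96.5%, 108%, and 123% with siRNA2. All siRNA1 arrays were below all other arrays. For *Atp5j*, the log2 difference was -0.44 ± 0.12 with siRNA1 (limma adjusted p = 0.015) and 0.12 ± 0.12 with siRNA2 (adjusted p = 0.58). Within slides, the siRNA1 difference was -0.46, -0.59, and -0.28, and the call remained when any 1 array was left out.

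*Atp5pb*, the b subunit of the same stalk, differed less but with a small spread. It was 99.8%, 98.9%, 99.8%, and 102% on the control arrays, 86.6%, 89.0%, 83.4%, and 89.6% with siRNA1, and 95.1%, 92.8%, and 91.3% with siRNA2. The 3 groups did not overlap, with siRNA2 between control and siRNA1. Its log2 difference was -0.20 ± 0.06 with siRNA1 (limma adjusted p = 0.039) and -0.10 ± 0.07 with siRNA2 (adjusted p = 0.36). The siRNA1 call was lost in 9 of 11 fits without 1 array, that is, in all but those without siRNA2 arrays 1 or 3. It was also lost with median scaling and with quantile normalization. The catalytic subunit *Atp5b* and the central stalk subunit *Atp5c1*, the brightest of complex V, were at 93.7% ± 13.0 and 92.5% ± 7.93 with siRNA1, and at 102% ± 19.6 and 102% ± 11.1 with siRNA2, and were not called. *Atp5e*, the epsilon subunit, was 92.6%, 103%, 101%, and 105% on the control arrays, 94.3%, 108%, 83.1%, and 101% with siRNA1, and 111%, 120%, and 126% with siRNA2. Its siRNA2 arrays were above all others, without a call against control (log2 difference 0.25, limma adjusted p = 0.11).

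**Figure D4:**
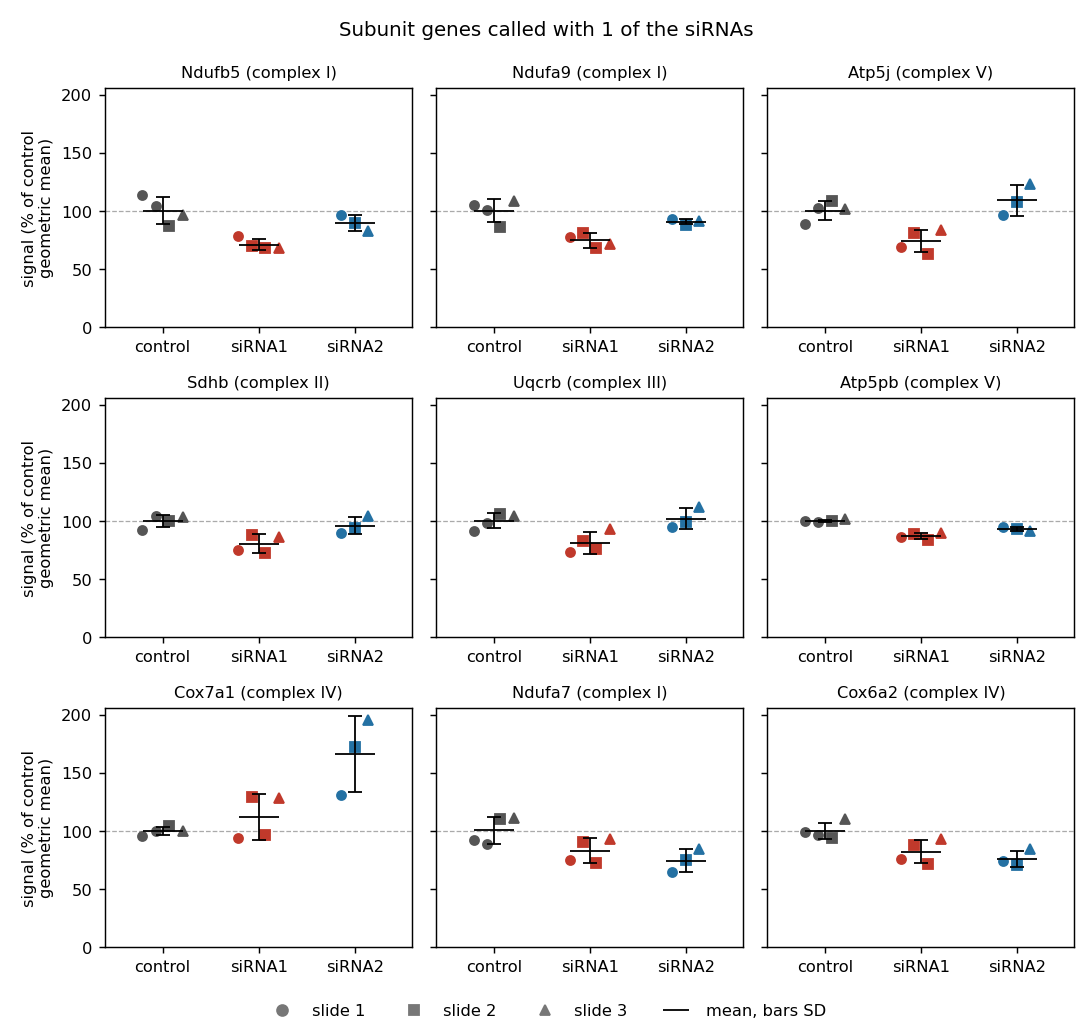
Signal of the 9 genes called with siRNA1 (upper rows) or siRNA2 (lowest row) on each array, as percent of the control geometric mean. Points are arrays, marker shapes are slides, and lines and bars are the mean and SD of 4 control, 4 siRNA1, and 3 siRNA2 arrays. In the upper rows the siRNA1 means are 71.2% to 87.1%, and *Cox7a1* with siRNA2 is at 166%.

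The second question was whether the siRNAs differed from each other, which was tested directly. Of the 81 genes, 7 were called between siRNA1 and siRNA2, as against 24.9% of all probes. *Ndufb5*, *Ndufv3*, *Uqcrb*, *Cox7a1*, *Atp5e*, and *Atp5j* were lower with siRNA1 (12.6% of all probes were), and *Uqcrfs1* was higher (12.3%). The log2 difference of siRNA1 from siRNA2 was -0.56 ± 0.12 for *Atp5j* (limma adjusted p = 0.0066), -0.57 ± 0.15 for *Cox7a1* (adjusted p = 0.019), and 0.37 ± 0.10 for *Uqcrfs1* (adjusted p = 0.019). The *Atp5j* call remained when any 1 array was left out. The *Cox7a1* call was lost without siRNA1 array 3, siRNA2 array 2, or siRNA2 array 3, and the *Uqcrfs1* call without siRNA2 arrays 1 or 3. The other 4 genes differed by -0.47 to -0.31 (adjusted p = 0.019 to 0.045), and each call was lost without 1 of 3 to 9 arrays, siRNA2 array 2 being among them for all 4. None of the 7 differed by 2-fold, as against 2.9% of all probes with such a call. The groups did not overlap for 13 of the 81 genes, as against 31.9% of all probes, and 17 had an unadjusted p under 0.05 in limma, as against 36.3%.

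The median log2 difference of the 81 genes between siRNA1 and siRNA2 was -0.15 (all probes -0.04), and 62 of them were lower with siRNA1 (55.4% of all probes were). It was -0.11, -0.17, and -0.15 within slides 1, 2, and 3. It was below 0 under all scalings tried, at -0.11 with median scaling and -0.07 with quantile normalization. By complex, the median was -0.26 for complex III, -0.17 for complex V, -0.15 for complex I, -0.11 for complex IV, and -0.03 for complex II, the last of which became 0.0058 with median scaling. With the slide as a block, 16 of the 81 genes were called between the siRNAs, 15 lower with siRNA1 and 1 higher, as against 34.2% of all probes.

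Genes that build, supply, or regulate the chain were read from 4 lists, with the share of all probes called being 28.3% with siRNA1 and 19.4% with siRNA2. Of 39 assembly factors tested, 6 were higher and 11 lower with siRNA1, and 1 was higher and 6 lower with siRNA2. Of 20 regulators of mitochondrial transcription, replication, and biogenesis, 3 were higher and 4 lower with siRNA1, and 2 were higher and 2 lower with siRNA2. Of 14 citric acid cycle genes, 1 was higher and 2 lower, and 1 higher and 1 lower. Of 18 genes of mobile carriers, coenzyme Q synthesis, and nucleotide exchange, 4 were lower with siRNA1, and 1 was higher and 2 lower with siRNA2. The list medians were -0.09 to 0.011 with siRNA1 and -0.07 to 0.08 with siRNA2.

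Of the 91 genes of these lists, 9 (9.89%) were called in the same direction with both siRNAs, as against 8.72% of all probes, and the siRNAs share their control arrays. In each of the 9, which were picked by calls on these same arrays, the arrays of both siRNAs were apart from the control arrays. Of all probes, 29.7% with siRNA1 and 28.6% with siRNA2 had groups that did not overlap. *Ndufaf4*, an assembly factor of complex I, rose to 143% ± 4.87 with siRNA1 and to 161% ± 6.72 with siRNA2 (limma adjusted p = 0.00026 and 9.8e-05). *Timmdc1*, which helps to assemble the membrane arm of complex I, fell to 81.4% ± 7.63 and 79.1% ± 4.17 (adjusted p = 0.031 and 0.035). *Taco1*, a translational activator of the mitochondrially encoded Cox1 subunit, fell to 73.7% ± 4.64 and 70.3% ± 7.0 (adjusted p = 0.0039 and 0.0035). The *Timmdc1* calls were lost in 5 and 7 of 11 fits without 1 array, and those of the other 2 genes in none.

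Among regulators, *Ppargc1b*, a coactivator known for raising mitochondrial gene expression, rose to 152% ± 17.1 with siRNA1 and to 189% ± 49.9 with siRNA2 (limma adjusted p = 0.018 and 0.0046). *Twnk*, the helicase of mitochondrial DNA, rose to 143% ± 12.2 and 132% ± 8.75 (adjusted p = 0.0022 and 0.019). *Ssbp1*, the mitochondrial single-stranded DNA-binding protein, fell to 86.9% ± 3.98 and 76.2% ± 0.144 (adjusted p = 0.048 and 0.0035). The *Ssbp1* call with siRNA1 was lost in 11 of 11 fits without 1 array. The *Ppargc1b* call with siRNA1 was lost without control array 1, and the *Twnk* call with siRNA2 without control array 1, siRNA2 array 1, or siRNA2 array 3. *Esrra*, a regulator picked after its values were seen, was lower with siRNA1 (log2 difference -0.85, limma adjusted p = 0.00026). It was not among the genes called with both siRNAs.

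In the citric acid cycle, *Cs*, citrate synthase, rose to 122% ± 8.58 and 123% ± 7.58 (limma adjusted p = 0.027 and 0.042), and *Idh3a*, the catalytic subunit of NAD-dependent isocitrate dehydrogenase, fell to 71.3% ± 9.55 and 61.4% ± 8.81 (adjusted p = 0.022 and 0.0068). *Coq8b*, which is needed for coenzyme Q synthesis, fell to 73.9% ± 6.44 and 67.1% ± 10.1 (adjusted p = 0.0098 and 0.0042). The *Cs* calls were lost in 6 and 7 of 11 fits without 1 array, and the *Idh3a* call with siRNA1 in 3. Of these 9 genes, none changed by 2-fold. Among list genes called with only 1 siRNA, some did, and the examples given here were picked after their values were seen. The log2 difference of *Uqcc1*, an assembly factor, was -1.07 with siRNA1 (limma adjusted p = 2.2e-06). That of *Coq8a*, from the coenzyme Q list, was 1.01 with siRNA2 (adjusted p = 0.0001).

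**Figure D5:**
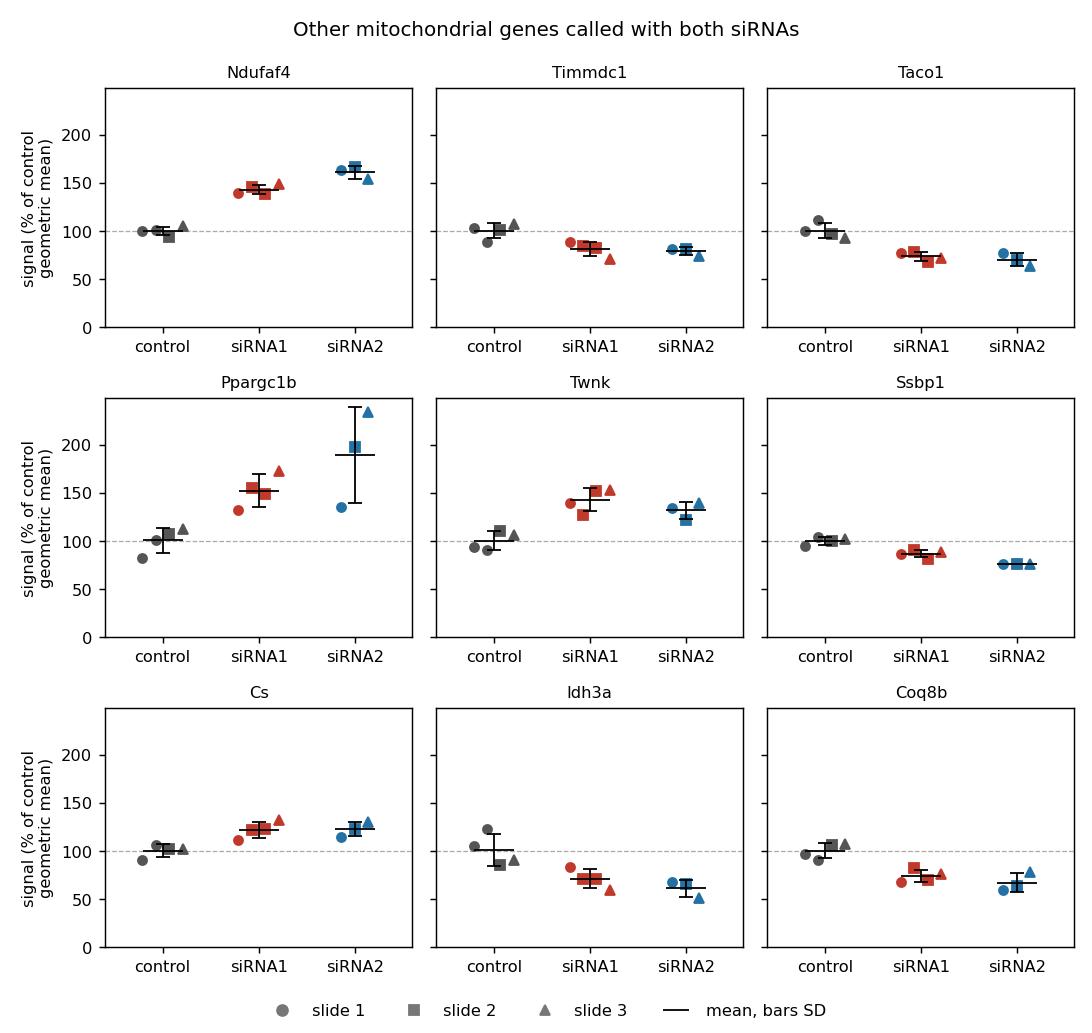
Signal of the 9 genes from the related lists that were called with both siRNAs, on each array (percent of the control geometric mean). Points are arrays, marker shapes are slides, and lines and bars are the mean and SD. *Ndufaf4*, *Ppargc1b*, *Twnk*, and *Cs* are above control with both siRNAs, and *Timmdc1*, *Taco1*, *Ssbp1*, *Idh3a*, and *Coq8b* are below.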

How the data were processed

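RNA of 11 samples of MLTCs was hybridized to 1-color arrays. The authors deposited a signal intensity for each spot, which the scanner software of the maker (Feature Extraction, version 9.5.1.1 per the file headers) had corrected for the background within each array and not normalized between arrays. The precision is limited by how many arrays there are. Of 43379 spots that are no control spots, 58.6% to 62.6% were well above background per array, and no spot was saturated. The deposited marks of the spots (well above background, saturated, outlier) and the slide come from the same files. A deposited table of group averages for probes selected by the authors was not used.

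On each array, signals were taken as log2 relative to the 75th percentile without control spots, so that each value is relative to the other transcripts of its array. Spots with an outlier mark (45 to 96 per array) were dropped, and repeated spots of 1 probe were averaged. Probes were named through RefSeq accessions (24375 of 41174 probes). The array was annotated on an older build than the reference, so that no gene coordinates are given other than those of the RefSeq promoters. A gene is read by its brightest passing probe.

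limma (version 3.58.1, R 4.3.3) fitted 22632 probes, namely those above background on all arrays, as 3 groups (lmFit, then contrasts.fit and eBayes). Calls rest on p-values adjusted by Benjamini-Hochberg over all these probes, at 0.05 or less, and the 95% intervals are from the same fit. The fit was tested on simulated data. The genes named are those called in any comparison, the 2 brightest of each complex, complex II and isoform genes, *Cyc1*, *Uqcrfs1*, and genes of the related lists called with both siRNAs. Other genes named were picked after their values were seen, and this is stated. The members, lists, tests, and naming rule were chosen with earlier results of these data known.

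The alternatives were quantile normalization, median scaling, normexp background correction (offset 50), all probes irrespective of brightness, probes above background throughout at least 1 group, outlier spots kept, genes as the mean of their probes, the slide or the replicate number as a block, fits of 2 groups only, eBayes with trend and robust options, the methods' t-test with and without adjustment, a fold change of at least 2, and the omission of 1 array at a time. An alternative added after the data were seen was normexp with extreme local backgrounds replaced.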

Additional observations from a re-analysis of the deposited data

Results flagged for a closer look

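The difference between the siRNAs passed the test for 7 subunit genes, with log2 differences of siRNA1 from siRNA2 of -0.57 for *Cox7a1*, -0.56 for *Atp5j*, -0.47 for *Ndufv3*, -0.34 for *Ndufb5*, -0.33 for *Uqcrb*, -0.31 for *Atp5e*, and 0.37 for *Uqcrfs1* (limma adjusted p = 0.0066 to 0.045). For *Ndufv3*, the values against control depended on the probe, as described above.

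Single arrays were far from the other 3 of their group for 2 genes. *Cox6a1* was at 88.4% on control array 1 and at 103% to 105% on the other control arrays. *Ndufb5* was at 78.2% on siRNA1 array 1 and at 68.4% to 69.6% on the other siRNA1 arrays. Of 60 groups of 4 arrays examined, these were the only ones, and chance gives about 1 in 20.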

How the results depend on the processing

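The number of arrays, the spread between slides, and the scaling limit what can be said of differences under 0.5 on the log2 scale. Of the 6, 3, and 7 subunit genes called for siRNA1 and siRNA2 against control and for siRNA1 against siRNA2, 3, 1, and 3 were called with median scaling and 3, 1, and 1 without a filter on dim probes. The shares of all probes called were 21.9%, 14.1%, and 19.4% with median scaling, and 13.7%, 7.83%, and 10.6% without the filter. With the methods' t-test, 14, 13, and 12 were called without adjustment, as against 36.9%, 28.4%, and 32.1% of all probes. With adjustment, this test called 1 between the siRNAs, as against 17.5% of all probes. Fits of the 2 groups alone gave 4 between the siRNAs (21.2% of all probes). Quantile normalization gave 4 lower and 2 higher for siRNA1 (28.3%), and 2 lower and 4 higher for siRNA2 (19.8%). At a fold change of at least 2, 0 were called in each comparison, as against 2.44%, 1.91%, and 2.9% of all probes. An unadjusted p under 0.05 in limma was found for 16, 6, and 17, as against 39.4%, 31.3%, and 36.3%. Leaving out 1 array gave 3 to 7, 1 to 4, and 2 to 9 calls. The shares of all probes were then 21.5% to 28.9%, 13.2% to 19.4%, and 18.4% to 24.8%. With the slide as a block, 13 were called for siRNA1 (37.9% of all probes) and 16 between the siRNAs (34.2%). The labels do not say whether equal replicate numbers pair the arrays. Over all probes, the correlation of same-numbered arrays had a median of 0.36 (-0.26 to 0.61, 10 pairs). That of arrays with different numbers had a median of -0.13 (-0.53 to 0.52, 30 pairs). Some same-numbered arrays also share a slide, so that number and slide cannot be fully told apart. With the replicate number as a block, 10, 4, and 18 were called, as against 36.9%, 26.4%, and 33.5% of all probes.

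With normexp background correction, 0 were called in each comparison by limma, as against 2.17%, 0.68%, and 0.543% of all probes. The median of the subunit genes was -0.42 for siRNA1 and -0.17 for siRNA2, and 79 and 73 of them were below control. The median of all probes moved from -0.05 to 0.15 and from -0.01 to 0.13. Up to 10 spots per array had a local background of over 3 times the array's median. With these set to the median, a step chosen after the data were seen, 7 (6 lower and 1 higher), 3, and 5 were called. The shares of all probes were 31.1%, 16.7%, and 23.6%, and the medians of the subunit genes were -0.06 and 0.04. Normexp without that step also turned *Cox7a1* (-0.14) and *Uqcrfs1* (-0.14) with siRNA1, *Atp5j* (-0.066) and *Uqcrb* (-0.20) with siRNA2, *Cs* with siRNA1 (-0.050), and *Mamld1* with siRNA1 (0.65) and siRNA2 (0.44), and with the extreme backgrounds replaced, *Atp5e* with siRNA1 (0.017) turned.

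Among the subunit genes called in any comparison, other values that changed sign were not called before or after. They were *Atp5e* with siRNA1 under quantile normalization (0.045) and without 1 array (-0.11 to 0.011), *Atp5pb* between the siRNAs under quantile normalization (0.041), *Ndufv3* with siRNA2 as the mean over its probes (-0.039), and *Uqcrb* with siRNA2 with the slide as a block (-0.0026) and without 1 array (-0.046 to 0.077). Of the 18 named subunit genes called in no comparison, 36 of 54 values changed sign under some alternative, and 3 were called under some alternative. The cause of these changes was not tested. The calls of *Ndufa9*, *Ndufb5*, and *Atp5j* with siRNA1 and of *Cox7a1* with siRNA2 remained under all alternatives other than normexp without that step and a fold change of at least 2.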
